A study of Mus musculus with 2 samples.

Results

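The mitochondrial ribosomal protein genes were described in RNA-seq of polyadenylated RNA from mouse liver. The members were all GENCODE protein-coding genes whose symbol is Mrpl or Mrps, a number and at most 1 further letter. The gene tables of both libraries held 77 of them among 43346 genes listed. GENCODE M21 names 78 such genes, and the identifier it gives to Mrpl33 was not among those of the tables, so Mrpl33 was not analysed here. The members lie on 17 chromosomes, with 11 on chromosome 11 and 8 on chromosome 17.

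The tissue was liver of C57BL/6J mice, a common inbred strain, at 8 weeks of age, and males and females were pooled. The labels name no treatment and no altered gene. There was 1 group with 2 libraries, biological replicates 1 and 2, which have separate sample records and 1 donor identifier. Nothing states that they came from separate animals, so the p-values below measure only how these libraries differ beyond counting error, and that difference may be technical. In such bulk RNA, fewer cells of a type and less RNA per cell cannot be told apart. All 6 hepatocyte markers were detected, led by Alb (albumin) at 32113 and 34763 TPM (a level per length of transcript, scaled to the same sum in each library) in replicates 1 and 2.

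Mitochondria hold their own ribosome, which translates the few mRNAs of the mitochondrial genome, all of them for proteins of oxidative phosphorylation. Its rRNAs are copied from mitochondrial DNA, whereas its proteins are encoded in the nucleus, made in the cytosol and imported. Some of these proteins descend from bacterial ribosomal proteins and the others were added in the course of mitochondrial evolution. The small subunit binds and decodes the mRNA, and the large subunit joins the amino acids.

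Of the 77 members, 26 encode proteins of the small subunit, 16 counted here as having a bacterial counterpart and 10 as having none. The large subunit has 50, of which 29 were counted with a bacterial counterpart and 21 without. Symbols mislead for 3 genes. Mrps30 and Mrps18a are named for the small subunit, but their proteins sit in the large one. Mrps36 encodes a subunit of the oxoglutarate dehydrogenase complex, an enzyme of the citric acid cycle, and is no ribosomal protein; it is kept here because the symbol selects it, and is given apart.

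Every member was detected, with at least 1 TPM in both libraries, and 64 of 77 reached 10 TPM in both. Most were moderate: 55 lay between 10 and 100 TPM in both libraries and 6 were at 100 or more. The members together held 138525 of 60770411 estimated reads in replicate 1 and 144244 of 61688916 in replicate 2. Their share of TPM was 0.420% and 0.455%, and the median member stood at 31.5 and 30.3 TPM. The most abundant member was 461 times the least abundant in replicate 1 and 636 times in replicate 2. Single members had between 181 and 10071 reads in replicate 1 and between 166 and 12651 in replicate 2, so that none was near the limit of 3 reads that a count of 0 would allow.

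**Figure D1:**
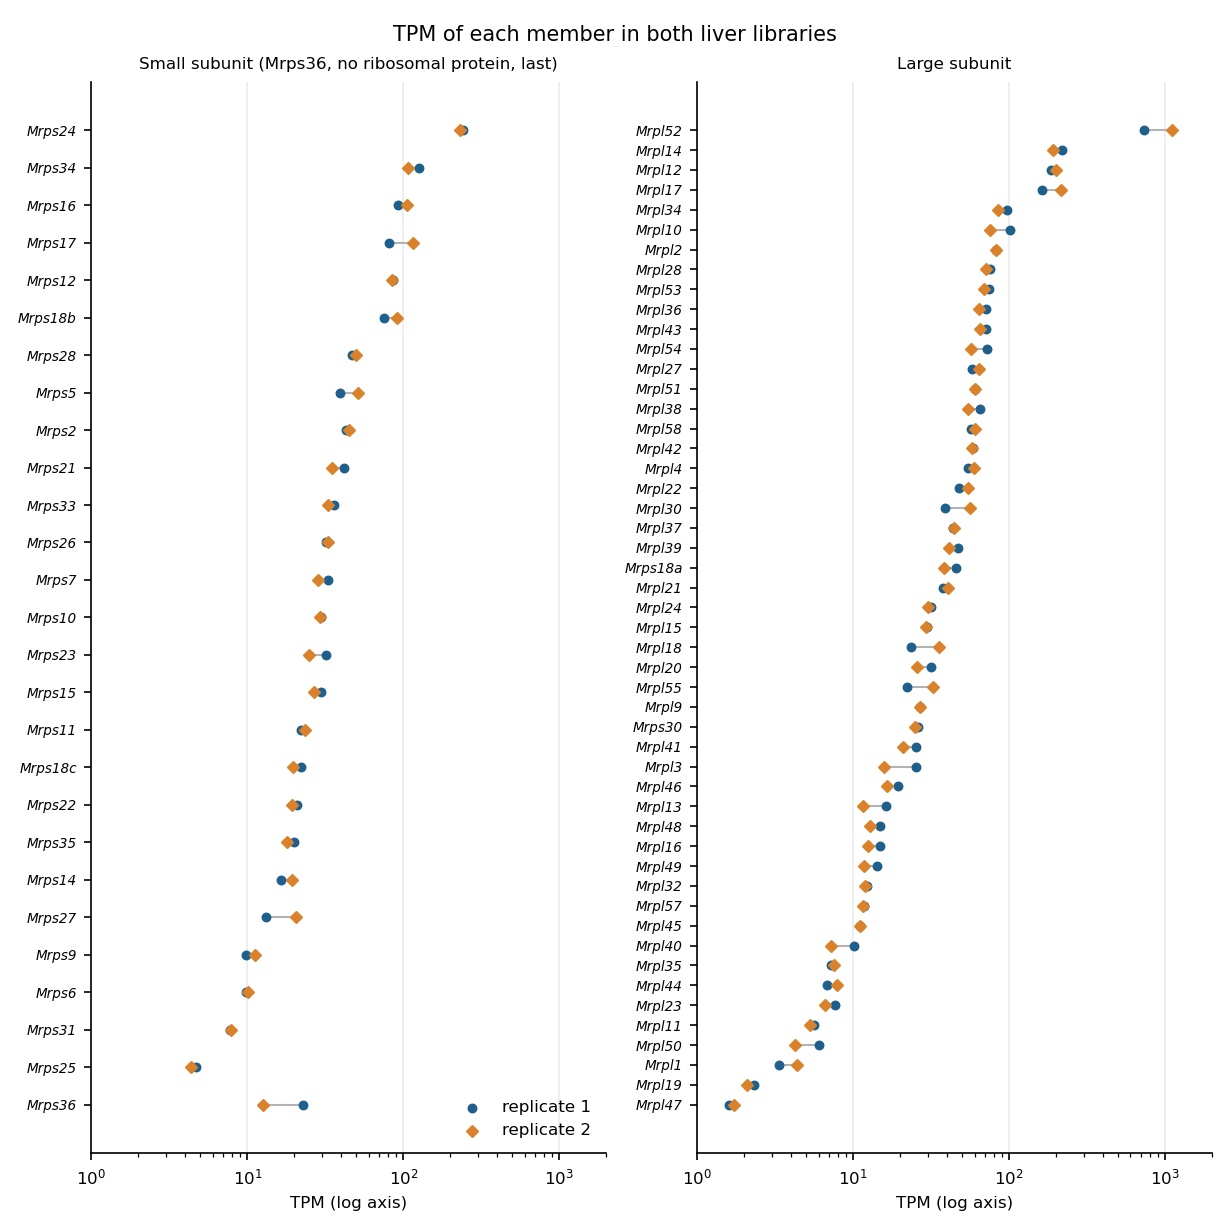
TPM of each of the 77 members on a log axis, small subunit at the left (Mrps36 at the foot) and large subunit at the right, with a circle for replicate 1 and a diamond for replicate 2. Mrpl52 stands apart at 737 and 1101 TPM, and the libraries rank the other members closely alike.

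Mrpl52, a large-subunit protein without a bacterial counterpart, was the most abundant member, at 737 TPM in replicate 1 and 1101 TPM in replicate 2. It alone held 17.5% and 24.2% of the members' TPM. Its reads numbered 8042 and 12651, which is not the highest in replicate 1: Mrpl12 had 10071 there. TPM divides by the effective length, the number of positions where a fragment can start, and Mrpl52 has a single model of 412 bases with an effective length of 224 and 234 bases. Without Mrpl52 the members held 0.347% and 0.345% of TPM, so the higher share in replicate 2 was that of this gene.

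The gene lies at chr14:54426909-54429756 on the plus strand of GRCm38. The 250 bases before its start in RefSeq (GRCm38.p6, chr14:54426659-54426908, plus strand) are shown because this is the leading member. The capitals mark an ETS motif on the strand opposite to the gene, and the stretch holds 21 CpG dinucleotides.
Mrpl52 upstream: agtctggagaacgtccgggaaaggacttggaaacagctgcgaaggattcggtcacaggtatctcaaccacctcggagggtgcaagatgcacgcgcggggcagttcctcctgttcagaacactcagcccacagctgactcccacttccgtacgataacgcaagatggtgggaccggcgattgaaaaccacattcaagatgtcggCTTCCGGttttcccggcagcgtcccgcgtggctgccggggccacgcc

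In the small subunit, the levels ran from Mrps24 down to Mrps25. Mrps24, the counterpart of the bacterial protein uS3 at the mRNA entry, was at 243 and 231 TPM. Mrps34, which has no bacterial counterpart, followed at 125 and 107 TPM. Mrps16 was at 92.9 and 105 TPM and Mrps17 at 80.6 and 116 TPM; both proteins have bacterial counterparts. Mrps12, whose bacterial counterpart lies in the decoding centre, was at 86.0 and 84.3 TPM. The order of Mrps34, Mrps16, Mrps17 and Mrps12 differed between the libraries, so their ranks are not separated.

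The lowest small-subunit members were Mrps31 at 7.70 and 7.89 TPM and Mrps25 at 4.71 and 4.32 TPM, neither of which has a bacterial counterpart. The 3 paralogs related to bacterial S18 differed in level. Only Mrps18c was counted among proteins with a bacterial counterpart, and Mrps18a and Mrps18b among those without. Mrps18b was at 75.1 and 91.6 TPM and Mrps18c at 22.0 and 19.6 TPM, both in the small subunit. Mrps18a, in the large subunit, was at 45.9 and 38.4 TPM, between the others in both libraries.

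Among large-subunit members after Mrpl52, 3 with bacterial counterparts exceeded 150 TPM in both libraries. Mrpl14 was at 217 and 192 TPM, and Mrpl17 at 164 and 215 TPM. Mrpl12, the stalk protein that binds translation factors, was at 185 and 200 TPM. Their order differed between replicates 1 and 2. Mrpl34 was at 97.0 and 84.9 TPM and Mrpl10, the stalk base, at 101 and 75.1 TPM. Mrps30, a large-subunit protein despite its symbol, was at 26.2 and 24.9 TPM.

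By mean TPM, 8 of the 10 least abundant and 6 of the 10 most abundant members were of the large subunit, which has 50 of the 77. Mrpl47 was lowest at 1.60 and 1.73 TPM, from 181 and 252 reads, and Mrpl19 next at 2.32 and 2.07 TPM. Mrpl1, the counterpart of a protein of the bacterial L1 stalk, was at 3.32 and 4.39 TPM. These 3 have bacterial counterparts, as do Mrpl11 (5.60 and 5.26 TPM), Mrpl23 (7.69 and 6.56 TPM) and Mrpl35 (7.23 and 7.49 TPM). Mrpl50 at 6.06 and 4.23 TPM and Mrpl44 at 6.80 and 7.89 TPM do not.

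The subunits were close in their middle. The median small-subunit member stood at 32.1 and 28.8 TPM and the median large-subunit member at 31.5 and 33.9 TPM in replicates 1 and 2, so the order changed with the library. Their spread did differ in both libraries. The SD of log2 TPM was 1.31 and 1.32 in the small subunit and 1.72 and 1.78 in the large. Proteins with and without a bacterial counterpart had medians of 36.3 and 26.3 TPM in the small subunit of replicate 1, and of 31.4 and 43.6 TPM in the large subunit of the same library. In replicate 2 these medians were 32.1 and 22.8 TPM, and 32.4 and 38.4 TPM. Genes are not replicates, so no test was made across them.

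Outside the members, 5 genes encode mitoribosomal proteins under other names, and all were detected. Aurkaip1 was highest at 118 and 132 TPM, and Ptcd3 lowest, at 4.23 and 4.51 TPM. The list had a median of 25 and 28.0 TPM. The mitochondrial rRNAs mt-Rnr2 and mt-Rnr1 were at 455 and 460 TPM and at 104 and 82.2 TPM, but the libraries were selected for poly-A and depleted of rRNA, so these are not rRNA levels.

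Genes that serve the mitoribosome stood lower than its proteins. Among the translation factors, 12 of 13 in the tables were detected, with a median of 15.2 and 15 TPM. The list was led by the elongation factor Tufm (136 and 139 TPM) and by Oxa1l, which inserts the products into the inner membrane (76.9 and 85.8 TPM). All 22 assembly factors in the tables were detected, with a median of 9.49 and 9.80 TPM and no gene above Rbfa at 32.1 and 32.3 TPM. The 19 aminoacyl-tRNA synthetases had a median of 15.3 and 16 TPM and the 18 genes of mitochondrial DNA expression one of 8.61 and 8.84 TPM. In the synthetase list Lars2 was alone at 670 and 401 TPM, whereas the next was Yars2 at 27.1 TPM in replicate 1 and Vars2 at 25.4 TPM in replicate 2. Lars2 had 120586 and 72995 reads, and where in the gene they lie was not examined.

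**Figure D2:**
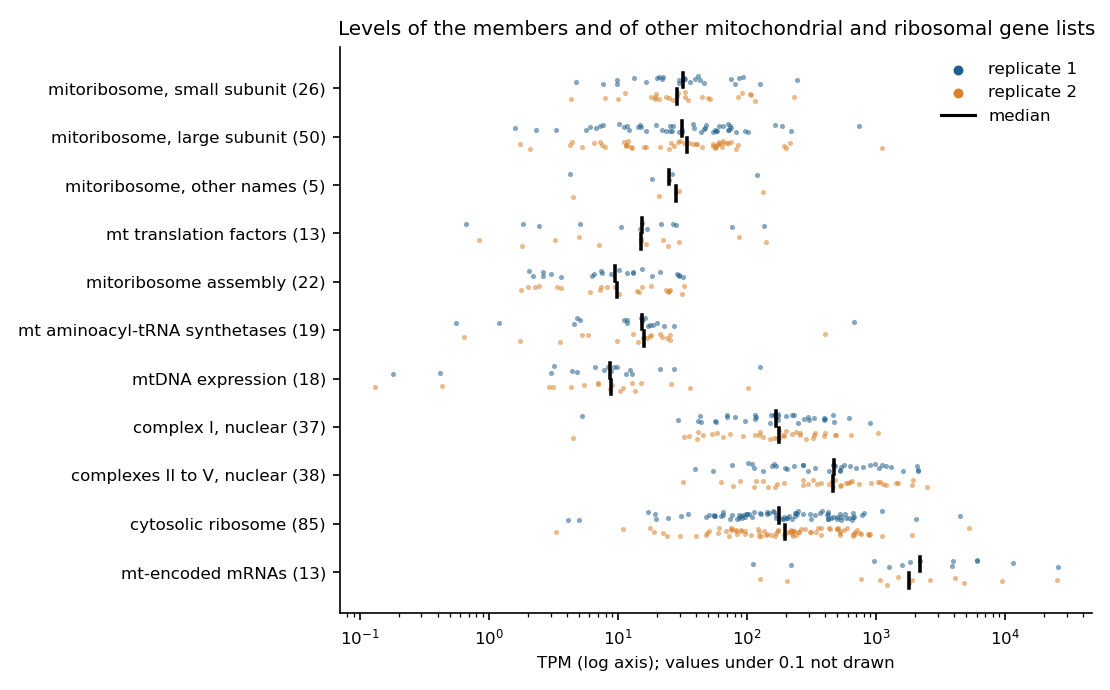
TPM on a log axis of the genes in each list (number of genes in brackets), blue for replicate 1 and orange for replicate 2, with a black bar at each median. Members of both mitoribosomal subunits centre near 30 TPM, above the lists for translation factors, assembly and mitochondrial DNA expression and below respiratory subunits and cytosolic ribosomal proteins.

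Nuclear genes for oxidative phosphorylation, and those for the ribosome of the cytosol, stood higher. The 37 genes listed as nuclear complex I subunits had a median of 167 and 176 TPM, 5.31 and 5.79 times that of the members. That list was set by symbol and takes in Ndufa4, which is also named in the list for complexes II to V. The 38 nuclear subunits of complexes II to V in the tables had a median of 471 and 460 TPM. The 85 cytosolic ribosomal protein genes had a median of 177 and 196 TPM, 5.61 and 6.48 times that of the members. The 13 mitochondrially encoded mRNAs, which the mitoribosome translates, summed to 65112 and 54726 TPM, 15.5 and 12 times the sum of all members.

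Levels varied among the members, too. The SD of log2 TPM over all members was 1.57 and 1.63. Over the complex I subunits it was 1.44 and 1.5, and over the 82 detected cytosolic ribosomal protein genes 1.74 and 1.75. It was 1.5 and 1.5 over the subunits of complexes II to V, and 2.16 and 2.06 over the mitochondrially encoded mRNAs. Over all 10176 detected protein-coding genes it was 2.28 and 2.22. The middle 50% of the members spanned a 4.04-fold and a 4.77-fold range.

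Shorter members had higher TPM. The 10 most abundant members had a median effective length of 473 bases and the 10 least abundant one of 2288 bases. Across the 77 members Spearman's rho between mean effective length and mean TPM was -0.51, and across the 10176 detected protein-coding genes it was -0.37. These are descriptions across genes, which share libraries, and TPM is computed with the same length. The members have short transcripts as quantified, with a median effective length of 846 bases against 2087 for the detected protein-coding genes.

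**Figure D3:**
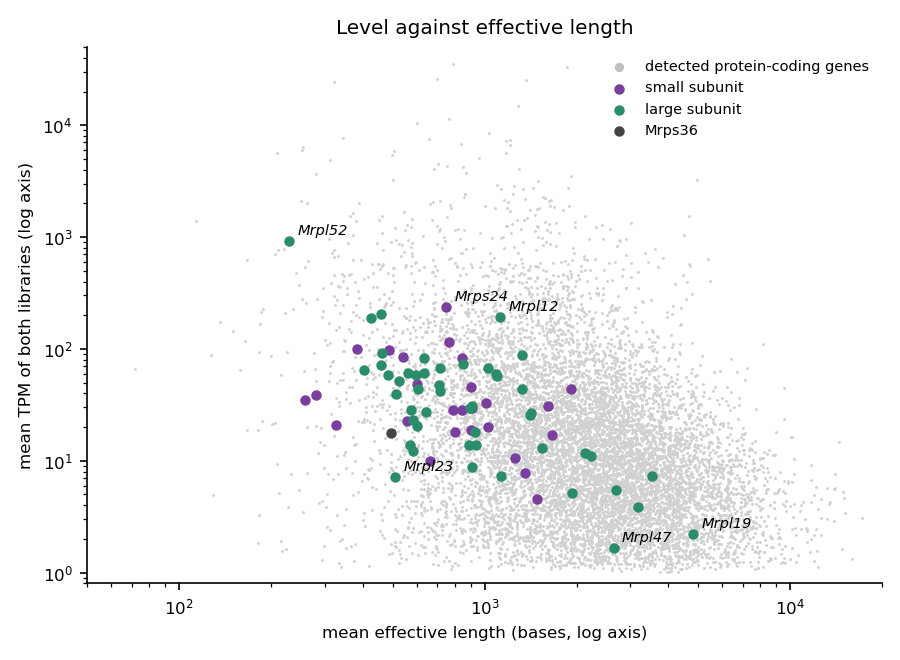
Mean TPM of both libraries against mean effective length, both on log axes, for the small-subunit members, the large-subunit members, Mrps36 and, in grey, the detected protein-coding genes. Members lie towards the left of the grey cloud, and their level falls from Mrpl52 at the upper left to Mrpl47 and Mrpl19 at the lower right.

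The transcript tables split each gene's TPM among its models, 275 in all for the members. Of the 50 members with more than 1 model and a mean of at least 10 TPM, 45 (90%) had the same leading model in both libraries. Over all 4042 such protein-coding genes the share was 90.8%. The 5 exceptions were Mrpl24, Mrpl48, Mrpl55, Mrps10 and Mrps17. In Mrps17, model Mrps17-201 held 39.0% and 28.4% of TPM and Mrps17-210 held 37.2% and 51.1%. In Mrps10 the leading models were 1018 and 1017 bases long, and both encode the protein.

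For 11 of these 50 members (22.0%), at least 50% of TPM in both libraries was assigned to models that M21 does not annotate as protein-coding. The share was 13.8% over all 4042 genes, 6.78% for cytosolic ribosomal proteins and 8.70% for complex I subunits. The 11 were Mrpl15, Mrpl21, Mrpl3, Mrpl39, Mrpl51, Mrpl58, Mrps11, Mrps14, Mrps26, Mrps33 and Mrps5. Their leading model was the same in both libraries in 11 of 11. It was of type retained intron in 8, nonsense-mediated decay in 2 and processed transcript in 1.

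Mrps26 was the most extreme: its 1057-base retained-intron model held 95% and 96.3% of TPM, against 1.60 and 1.21 TPM on its coding model. In Mrps33, a retained-intron model of 400 bases held 90.8% and 91.2%. In Mrpl3, whose protein lies in the large subunit, a 457-base nonsense-mediated decay model held 79.0% and 69.1%, and 1.47 and 1.21 of its 25.1 and 15.9 TPM were on coding models.

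All 11 leading models were shorter than the longest coding model of their gene. Their median length was 580 bases, and that of the longest coding models 2741 bases. The longest of a gene's coding models is a maximum, and the same comparison was not made for other members or genes. The shares are of TPM, which divides by length, so a model shorter than the others holds a larger share of TPM than of reads. In Mrps14 the leading model of 674 bases was at 11.5 and 15.8 TPM, and the coding model of 2999 bases at 2.44 and 2.11 TPM. Shares of reads were not worked out here. They may therefore differ widely from the shares of TPM given for these 11 members. Whether model length also took part in the assignment was not tested. Outside the 50, Mrps25 at 4.71 and 4.32 TPM had 83.0% and 77.3% of TPM on retained-intron models. Those models have 565 and 636 bases and its coding model 6073, so their share of reads is smaller than that of TPM. Mrpl32 has 1 model in the tables, of 768 bases, which M21 lists with 658 bases as nonsense-mediated decay.

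**Figure D4:**
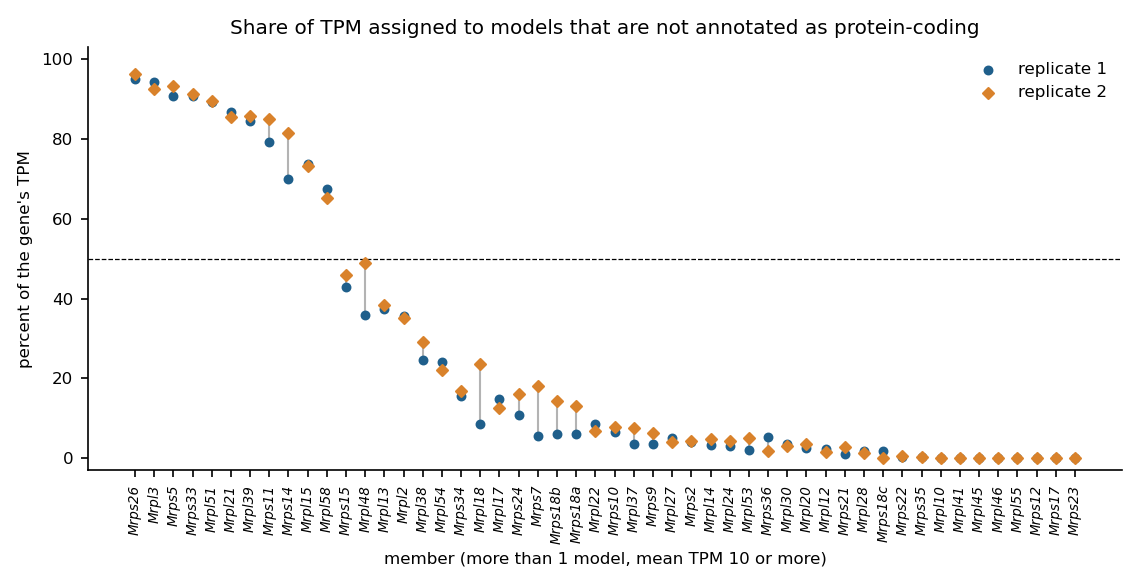
Percent of each gene's TPM on models not annotated as protein-coding in M21, for the 50 members with more than 1 model and a mean TPM of at least 10, circles for replicate 1 and diamonds for replicate 2, with a dashed line at 50%. The 11 members above the line are above it in both libraries, and 26 members are under 10% in both.

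Few pseudogene copies of members had reads. A copy was counted where another listed gene matched at least 50% of a member's coding sequence at 90% identity or more on the same strand. In M21 sequences, 20 members had 31 pseudogene copies, of which 21 had 0 reads in both libraries and 4 had at least 20 reads in both together. The posterior SD of the estimated count, the authors' measure of how uncertain the sharing of reads is, was 0 for 64 members in both libraries and above 1% of the count for 2. These were Mrpl23 at 7.77% and 7.90% and Mrpl27 at 1.36% and 1.29%.

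Mrpl23, at chr7:142532686-142540747 on the plus strand, encodes a large-subunit protein with a bacterial counterpart near the exit tunnel. Its processed pseudogene Mrpl23-ps1 on chromosome 2 was assigned far more reads than the gene. Mrpl23 had 189 and 166 reads, and Mrpl23-ps1 had 1474 and 1656. The copy thus took 88.6% and 90.9% of the reads assigned to either. The sequences are shown because they are the same where they align. All 438 bases of the coding sequence of model Mrpl23-201 align to the copy with 438 identical, and 540 of 540 over the whole aligned stretch. The model has 692 bases and the copy 580, so each also has bases outside that stretch. The posterior SD of the copy's count was 0.995% and 0.790% of the count. The first 120 coding bases of the gene follow, with those of the copy at chr2:74591773-74591892, minus strand; a capital would mark a difference, and there is none.
Mrpl23: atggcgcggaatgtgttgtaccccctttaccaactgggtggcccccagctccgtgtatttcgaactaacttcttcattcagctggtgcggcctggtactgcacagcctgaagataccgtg
Mrpl23-ps1: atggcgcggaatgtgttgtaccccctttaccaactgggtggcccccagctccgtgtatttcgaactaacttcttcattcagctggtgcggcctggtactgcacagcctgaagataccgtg

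A read within such a stretch matches both places, and how many came from each was not tested. Alone, Mrpl23 ranked 69 and 71 among the 77 members. Together with the copy it would be at 84.9 and 90.5 TPM and rank 11 and 10. The level of Mrpl23 is therefore uncertain. For Mrpl27, the copy Gm6304 with 98.9% identity had 190 and 165 reads beside 1567 and 1796 for the gene.

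Some members share bases with a neighbour on the same strand. Mrpl53 lies within Gm42688, a gene annotated as protein-coding that contains the whole Mrpl53 coding sequence and had 540 and 673 reads beside 1639 and 1587 for Mrpl53. Mrps24 overlaps Urgcp, with 2913 and 3311 reads, Mrps34 overlaps Nme3 and Mrps6 overlaps Slc5a3. Values of these members are uncertain to the extent that reads in the shared parts were split.

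The libraries were compared gene by gene with the exact conditional binomial test on TMM-scaled reads, with Benjamini-Hochberg adjustment over 14533 genes. It passed at 0.05 for 51 of 77 members (66.2%), against 57.1% of all genes tested and 75.8% of those at a mean of 10 TPM or more. Of these members, 41 were higher in replicate 1 and 10 higher in replicate 2, where 28.7% and 28.4% of all genes tested were called in those directions. Genes at a mean of 10 TPM or more, the level of most members, were also called more often towards replicate 1, with 2596 and 1557 of 5481. In the small subunit 9 of 26 were higher in replicate 1 and 3 in replicate 2; in the large subunit the counts were 31 and 7 of 50. The median log2 ratio of replicate 2 over replicate 1 was -0.15 for the members, 0.00 for all genes tested and -0.07 for genes at a mean of 10 TPM or more.

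The split depends on the scaling. With total reads it became 23 and 18, with spike-in totals 23 and 21, and with DESeq2 size factors 43 and 10. The median of all genes moved with it, to 0.13 with total reads and 0.15 with spike-ins. A scaling shifts every gene by the same amount, so the members' median minus that of all genes tested, -0.15, could not change with it.

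The differences were small. Of 77 members, 75 lay within 1.5-fold (97.4%, against 91.5% of genes at a mean of 10 TPM or more), and the median absolute log2 ratio was 0.20. Ranks by TPM in the libraries correlated with Spearman's rho of 0.98 across the members, the median shift was 2 ranks and the largest 14.

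Mrps36, the dehydrogenase subunit, was furthest apart. It had 541 reads and 22.7 TPM in replicate 1 and 310 reads and 12.6 TPM in replicate 2. Its log2 ratio was -0.95, with an exact 95% counting interval from -1.15 to -0.74. The adjusted p was 5.16e-20 by the exact binomial test. Replicate 1 was 1.93 times replicate 2.

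Among ribosomal proteins, Mrpl50 differed most towards replicate 1. It had 569 and 402 reads, 6.06 and 4.23 TPM, and a log2 ratio of -0.65 (-0.83 to -0.46). Mrpl13, of the large subunit with a bacterial counterpart, followed at 16.3 and 11.5 TPM and a log2 ratio of -0.57 (-0.73 to -0.40). Mrpl3, Mrps7 and Mrpl40 had log2 ratios of -0.51, -0.49 and -0.48. Of these 5 the largest adjusted p was 1.35e-05, for Mrpl40, by the exact binomial test.

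Towards replicate 2, Mrps27, a small-subunit protein of the pentatricopeptide repeat family, had 1072 and 1691 reads, 13.3 and 20.6 TPM, and a log2 ratio of 0.51 (0.40 to 0.62). Mrpl52 had the same ratio, 0.51 (0.47 to 0.55), with an adjusted p of 3.14e-136 by the exact binomial test. In these genes replicate 2 was 1.43 and 1.42 times replicate 1. Mrpl30 was at 38.9 and 55.9 TPM with a log2 ratio of 0.49 (0.39 to 0.59). Mrpl55, Mrpl47 and Mrpl18 had ratios of 0.37, 0.33 and 0.27. Each of the 12 members named for its ratio kept its call under all 4 scalings. The size moved: the ratio of Mrpl18 was 0.42 with spike-in totals. Their direction could not change, because they were picked for large ratios and the scalings shifted every gene by less than the smallest of these.

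**Figure D5:**
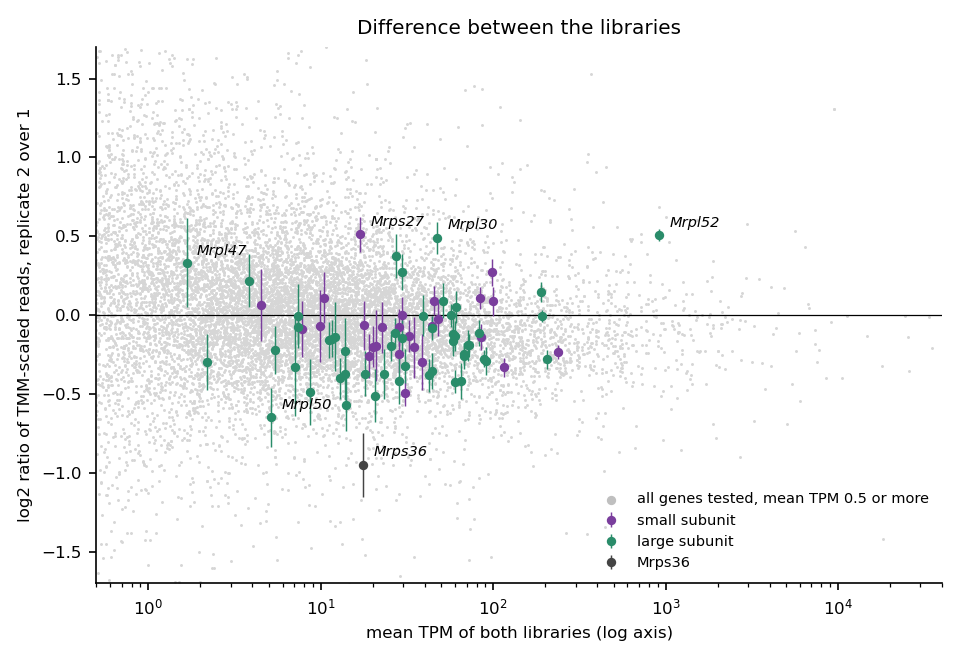
Log2 ratio of TMM-scaled reads, replicate 2 over replicate 1, against mean TPM on a log axis, for the small-subunit members, the large-subunit members, Mrps36 and, in grey, all genes tested at a mean of 0.5 TPM or more; bars are exact 95% counting intervals and grey points beyond the axis are not drawn. More members lie under 0 than over it, and Mrps36 at -0.95 is the lowest.

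Marker lists of liver cell types were compared as well, with TMM scaling. Among all genes tested, 28.7% were higher in replicate 1 and 28.4% in replicate 2. Of the Kupffer cell markers (liver macrophages), 8 of 8 were higher in replicate 2, summing to 210 and 348 TPM. Of the sinusoidal endothelial markers 5 of 6 were higher in replicate 2, at 90.9 and 129 TPM. Red cell markers summed to 1290 and 2110 TPM and lymphocyte markers to 5.13 and 13.0 TPM, with 4 of 5 higher in replicate 2 in both lists. Stellate cell markers were mixed: 3 of 6 were higher in replicate 2 and 1, Lrat, was higher in replicate 1, and they summed to 94.8 and 108 TPM. Of the cholangiocyte (bile duct) markers 2 of 5 were higher in replicate 1 and 0 in replicate 2, at 21.2 and 18.7 TPM. Of the hepatocyte markers 5 of 6 were higher in replicate 1, although by TPM their sum was 49867 and 51278. The noncoding RNAs Rn7s1 and Rn7s2 summed to 10822 and 26935 TPM. Their part in the members' ratios was not tested.

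Related lists were compared in the same way, with TMM scaling. Among 5481 genes at a mean of 10 TPM or more, 2596 were higher in replicate 1 and 1557 in replicate 2, with a median of -0.07. The median of all genes tested was 0.00, and with spike-in totals it was 0.15. List medians would rise by the same amount. Of 13 mitochondrially encoded mRNAs 12 were higher in replicate 1 and 0 in replicate 2, with a median log2 ratio of -0.38. Of 37 complex I subunits 24 were higher in replicate 1 and 6 in replicate 2, with a median of -0.12. Of the 82 cytosolic ribosomal proteins tested 40 and 27 were, with a median of -0.06. Of 22 assembly factors 7 and 2 were, with a median of -0.11. The 13 translation factors gave 5 and 1 (median -0.10), the 19 synthetases 5 and 3 (median 0.01), and 17 genes of mitochondrial DNA expression 4 and 2 (median -0.08).

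Many members start close to a gene on the other strand. A start here is the outermost upstream base of the gene in M21, which can differ from the RefSeq start of the promoter windows below. In M21, 18 of 77 (23.4%) have a protein-coding neighbour that runs the opposite way from a start 1 to 1000 bases upstream. The share was 10.5% among detected protein-coding genes, 10.6% among cytosolic ribosomal proteins and 24.3% among complex I subunits. Counting overlapping starts as well, it was 42.9% of members, 16.9% of detected protein-coding genes and 45.9% of complex I subunits.

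Examples follow, picked after their values were seen, and the other neighbours were not grouped by function. Mrps12 starts 172 bases from Sars2, the mitochondrial seryl-tRNA synthetase, and the levels were 86.0 and 84.3 TPM for Mrps12 and 17.7 and 21 TPM for Sars2. Mrps27 starts 81 bases from Ptcd2, at 13.4 and 14 TPM. Mrpl49 starts 59 bases from Fau, which encodes a cytosolic ribosomal protein fused to a ubiquitin-like one; Fau was at 534 and 715 TPM and Mrpl49 at 14.2 and 11.7 TPM. Mrpl32 starts 75 bases from the proteasome gene Psma2, at 12.2 and 12 TPM against 55.5 and 58.2 TPM.

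Levels within such pairs were often far apart. Of the 18 members 12 were higher than their neighbour in both libraries, 3 were lower in both, and 3 were mixed. Among overlapping pairs, Mrps11 and Mrpl46 face each other with starts 412 bases inside one another, at 22.2 and 23.4 TPM and at 19.5 and 16.4 TPM. Mrpl47, the least abundant member at 1.60 and 1.73 TPM, overlaps Ndufb5, a complex I subunit at 274 and 240 TPM. Mrpl36 overlaps Ndufs6, another such subunit, at 71.5 and 64.5 TPM against 96.0 and 92.9 TPM.

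Promoter windows from RefSeq (GRCm38.p6), from 250 bases before to 50 after a start, were found for 68 members, 74 windows in all. They were searched on both strands for the letters CCGGAAG (ETS family factors), GCGCATGC (NRF1) and AAGATGGCG (YY1), which are known at promoters of mitochondrial genes. The ETS letters were in 25 windows (33.8%), against 11.6% of 21263 windows of protein-coding genes and 8.86% of all 32851 windows. YY1 letters were in 8 (10.8%, against 1.83% and 1.40%) and NRF1 letters in 7 (9.46%, against 3.52% and 2.71%). At least 1 of the 3 was in 35 windows (47.3%, against 15.7% and 12.1%).

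The windows of members also hold more CpG, with a median of 21.5 dinucleotides against 13 in those of protein-coding genes, and all 3 motifs hold a CpG. A match describes letters, not binding, and no factor was measured. The NRF1 letters overlap their own complement, so a longer palindrome counts on both strands.

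Examples of 30 bases each are shown with the motif in capitals, on the strand of the gene, to let the matches be read in their context.
Mrpl43 (ETS): tcgcggtgactCCGGAAGcaaaactctcca
Mrpl27 (ETS): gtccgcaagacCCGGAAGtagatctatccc
Mrps22 (ETS): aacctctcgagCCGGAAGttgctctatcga
Mrpl32 (NRF1): ctttgacccttGCGCATGCgcaagaggggc
Mrpl22 (NRF1): ggcctcggactGCGCATGCgtatagtcagc
Mrpl42 (YY1): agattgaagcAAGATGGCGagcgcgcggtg

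The match in Mrpl43 is at chr19:45006480-45006509 (minus strand), 56 bases before the start, and that gene was at 70.6 and 64.6 TPM. In Mrpl27 the ETS match begins 55 bases before the start (chr11:94653725-94653754, plus). In Mrps22, a small-subunit gene at 20.7 and 19.4 TPM, it begins 11 bases before the start (chr9:98601672-98601701, minus). The NRF1 match shown for Mrpl32 begins 87 bases before the start (chr13:14613106-14613135, minus). Further NRF1 matches of Mrpl32, counting both strands, begin 85, 66 and 22 bases before it. The NRF1 match of Mrpl22, at 47.9 and 54.6 TPM, begins 33 bases before the start (chr11:58171620-58171649, plus). The YY1 letters of Mrpl42, a gene at 58.4 and 57.8 TPM, begin 27 bases after the start (chr10:95501903-95501932, minus). Of the 8 YY1 matches 6 were at or after the start, whereas ETS matches had a median position 18 bases before it.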

How the data were processed

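Per the labels, 2 strand-specific libraries of poly-A RNA over 200 nucleotides, depleted of rRNA and with spike-ins, were read in pairs of 76 nucleotides. Per the accompanying notes, the authors quantified them on mm10 with GENCODE M4. Quantifier and aligner were not given in the sources used here. Estimated counts, as deposited, need not be whole and were rounded. The deposited TPM and FPKM divide by effective length. The deposited posterior SD of a count served as a score of shared reads, and the deposited percent is a model's share of its gene's TPM. Deposited mm9 junctions and contigs were not used here.

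GENCODE M21, on the mm10 assembly GRCm38, gave symbols, positions and model types by stable identifier. Of the members' 275 models, 239 have the same length in M21, 35 another, and 1 had no match. Promoter windows are RefSeq's, and coding sequences were compared with blastn 2.17.0.

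TMM factors came from edgeR 4.0.16 in R 4.3.3. Genes with 20 reads or more in both libraries together had a two-sided exact conditional binomial test (scipy 1.17.1) with Benjamini-Hochberg adjustment at 0.05. It was checked on simulated counts that carried counting error alone, as the test assumes. The check could therefore not show how the test behaves with further variation. The test compares these libraries, not conditions. Log2 ratios carry a prior count of 0.5. Intervals are exact (Clopper-Pearson, 95%) and, like the limit for a count of 0, cover counting error alone, because PCR duplicates could not be told from separate molecules. Alternatives were 3 other scalings, including DESeq2 1.42.0 size factors, filters, denominators, pseudocounts and leaving out each library.

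The members, lists and comparisons were chosen with earlier results of these data known. Named in full are the 10 highest and 10 lowest members, the 6 largest ratios in each direction, members with shared reads or unusual models, and the ends of each list. Neighbouring genes, copies, Vars2, Lrat and the sequences shown were chosen after their values were seen.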

Additional observations from a re-analysis of the deposited data

How the results depend on the processing

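No paired analysis was possible because the series has 1 group. Scaling changed how far the members tilted to 1 library: members higher in replicate 1 and in replicate 2 numbered 41 and 10 with TMM, 23 and 18 with total reads, and 23 and 21 with spike-in totals, and the median log2 ratio of -0.15 became -0.027 and 0.0022 in the same order, the latter with the opposite sign. From deposited TPM with a pseudocount of 1 it was -0.035. The number that differ in either direction stayed between 41 and 53 with 3 other scalings and 2 other read minimums. The share of TPM, a mean of 0.438%, was 0.530% of nuclear protein-coding TPM and 0.346% without Mrpl52. Without replicate 1 or 2 it was 0.455% and 0.420%. The SD of log2 TPM, a mean of 1.6, was 1.51 with a pseudocount of 1 and 1.5 without Mrpl52, and 1.63 and 1.57 without replicate 1 or 2. The median member at 30.9 TPM was at 21.3 TPM on protein-coding models alone. Members with a head-to-head neighbour numbered 18, or 33 with overlaps. Without replicate 1 or 2, the small-subunit median was 28.8 and 32.1 TPM and the large-subunit median 33.9 and 31.5 TPM. All 36 rescaled ratios of the 12 named members kept their call. Their sizes shifted, as that of Mrpl18 did from 0.27 to 0.42 with spike-in totals. Direction could not change: these members were picked for large ratios, and each scaling shifted every gene by less than the smallest of them. Another 33 values for whole sets stayed within set limits. These were 1.5 times for counts, the libraries' SD, or 0.1 for the median ratio with DESeq2 size factors. Among them, members detected fell from 77 to 64 at a minimum of 10 TPM. Part of this was fixed in advance. A value from 1 library always lies within the SD of the 2 libraries around their mean. The FPKM share equals that of TPM by construction. The choices without Mrpl52, with coding models, with overlaps, and the splits by direction were added after the data were seen. With 1 group of 2 libraries, the spread between animals was not measured.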
